A study of Mus musculus with 6 samples.

Results

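The genes described here serve the DNA damage response and DNA repair: homologous recombination, the Fanconi pathway, mismatch repair, end joining, the checkpoint kinases and PARP1. They were chosen by symbol, 37 in all, and a gene was read from the probe set with exactly 1 platform gene symbol, the brightest where there were several. Of the 37 genes 32 were measured in this way, among 18417 genes in all. BRCA2, RBBP8, FANCA and FANCD2 were not analysed here, and the RAD51D probe set carries several symbols and was not used.

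Expression was read in tumours of SK-N-BE(2), an established human neuroblastoma cell line with an amplified MYCN gene, grown in the adrenal gland of mice of the NSG strain, which is without T, B and natural killer cells and keeps its myeloid and stromal cells. In the BL-8040 group (3 mice) the CXCR4 inhibitor BL-8040 was given under the skin at 400 µg from day 7 after cell injection, for 14 days. The control group (3 mice) carried the same tumours, and the sources used here do not give what the control mice received. All tumours come from 1 cell line, so differences between patients' tumours are not covered, and each tumour was read on 1 array built for human transcripts.

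A double-strand break is repaired either by homologous recombination, which copies the sister chromatid and so works mainly in S and G2 phase, or by end joining, which works throughout the cell cycle. The Fanconi pathway unhooks crosslinks between the strands and hands the broken fork to recombination. Breaks and stalled forks are sensed by the kinases ATM and ATR, which act through CHEK2 and CHEK1. Many recombination and Fanconi genes are transcribed under E2F factors and are most abundant in cells that replicate their DNA, and neuroblastoma cells with amplified MYCN are known for a high load of replication stress.

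The arrays were alike, with median log2 values between 5.35 and 5.42 and median correlations with the other arrays between 0.994 and 0.996. BL-8040 replicate 3 stood apart on the first principal component (37.2% of the variance), at -22.7 where the other 5 arrays lay between -0.743 and 10.1. MYCN read 12.23 ± 0.13 in BL-8040 tumours and 12.20 ± 0.03 in control tumours (log2, SD, n = 3 each). The mean log2 level of 8 adrenal cortex markers was 4.12 to 4.24 in BL-8040 tumours and 4.13 to 4.16 in control tumours, below the median of all genes (6.04). Because the array was built for human transcripts, these values do not show how much mouse adrenal tissue the samples held.

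Most repair genes had a slightly higher mean in BL-8040 tumours (24 of 32), and 24 of the 32 differed from the control level by 0.13 log2 units or less in either direction. BRCA1, FANCM, RAD51AP1, FANCI and FANCL were 1.14-fold to 1.26-fold higher, and BRIP1, BLM and XRCC2 1.13-fold to 1.18-fold. None passed the test over all genes. In limma, 0 of 32 repair genes and 0 of 18417 genes (0% called) had a Benjamini-Hochberg adjusted p under 0.05, with a smallest adjusted p of 0.644 in both. At an unadjusted limma p under 0.05, 5 of 32 repair genes were higher (15.6%), where 2.64% of all genes were, and 0 were lower, where 5.08% of all genes were; in either direction 7.72% of all genes reached that p. In this bulk measurement, a change in the number of cells that transcribe a gene and a change in its RNA per cell cannot be told apart. The count of 5 changed with single tumours left out. Without control replicate 2, 1 repair gene was higher at that p (1.78% of all genes), and without BL-8040 replicate 1, BL-8040 replicate 3 or control replicate 3, 2 were (2.36%, 2.35% and 1.93% of all genes). Without BL-8040 replicate 2 the count was 3 (2.55% of all genes) and without control replicate 1 it was 7 (3.82% of all genes). BRCA1 was among them whichever tumour was left out.

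**Figure D1:**
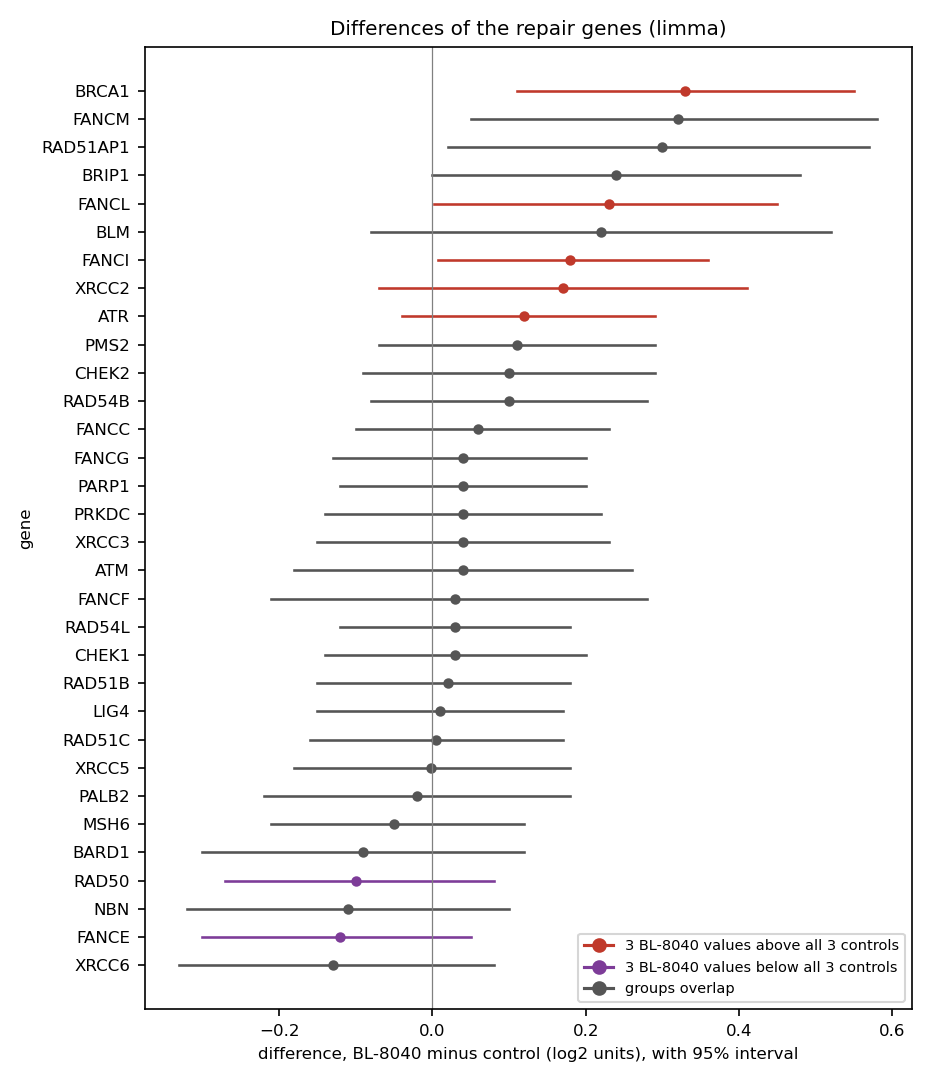
Difference of each of the 32 measured repair genes, BL-8040 minus control in log2 units (x axis), with its 95% interval from limma (lines) and 3 tumours per group; genes run down the page from the most positive difference. BRCA1 (0.33), FANCM (0.32) and RAD51AP1 (0.30) lie at the top, FANCE (-0.12) and XRCC6 (-0.13) at the bottom, and most intervals include 0.

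BRCA1, which organises recombination at broken ends and stalled forks, read 6.96, 6.98 and 6.93 in BL-8040 replicates 1, 2 and 3, against 6.83, 6.50 and 6.55 in control replicates 1, 2 and 3 (log2). The treated tumours lay within a narrow band above all controls, and control replicate 1 was 0.10 log2 units below the lowest of them. The difference was 0.33 ± 0.10 (SE; 95% interval 0.11 to 0.55; limma adjusted p = 0.644), a 1.26-fold level. In the limma fit across all genes BRCA1 had the smallest p of the 32 repair genes before adjustment. With 1 tumour left out the BRCA1 difference ran from 0.26, without control replicate 2, to 0.43, without control replicate 1.

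BRCA1 works as a ubiquitin ligase only together with BARD1, and the BARD1 transcript had a difference of the opposite sign. BARD1 read 6.59, 6.64 and 6.43 in BL-8040 tumours, against 6.74, 6.68 and 6.50 in control tumours (log2), a difference of -0.09 with a 95% interval from -0.30 to 0.12. Its groups overlapped. Relative to its mean over the arrays, the log2 ratio of BRCA1 to BARD1 was 0.17, 0.15 and 0.30 in BL-8040 tumours and -0.11, -0.38 and -0.14 in control tumours. The groups did not overlap in this ratio, which differed by 0.42 log2 units (two-sided exact permutation p = 0.1, the smallest that 3 against 3 tumours allow; 0.5 after Benjamini-Hochberg adjustment over the 10 pairs of partner genes compared, all picked after the values were seen).

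PALB2 links BRCA1 to BRCA2. It read 7.53, 7.57 and 7.37 in BL-8040 tumours, against 7.64, 7.46 and 7.42 in control tumours (log2). The groups overlapped widely, the difference was -0.02 (95% interval -0.22 to 0.18), and the sign turned to 0.04 without BL-8040 replicate 3. The log2 ratio of BRCA1 to PALB2 differed by 0.35 units, with groups that did not overlap (exact permutation p = 0.1, adjusted 0.5).

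BRIP1, the helicase that binds BRCA1 and is also a Fanconi gene, read 7.66, 7.38 and 7.38 in BL-8040 tumours, against 7.40, 7.13 and 7.18 in control tumours (log2). Control replicate 1 lay level with 2 of the 3 treated tumours. The difference was 0.24 ± 0.11 (SE; limma unadjusted p = 0.0508), and it was 0.14 without BL-8040 replicate 1, whose value was the highest.

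All 7 of RAD51AP1, RAD51B, RAD51C, XRCC2, XRCC3, RAD54L and RAD54B, which act in strand exchange, had a positive difference, as 41.5% of all genes did. Their median was only 0.04, and the signs of RAD51B, RAD51C and XRCC3 turned with single tumours left out. RAD51AP1, which promotes strand pairing, read 6.66, 6.6 and 6.71 in BL-8040 tumours, against 6.66, 6.17 and 6.26 in control tumours (log2). Control replicate 1 sat among the treated tumours, and the other 2 controls lay far below. The difference was 0.30 ± 0.12 (SE; 95% interval 0.02 to 0.57; limma adjusted p = 0.644), and it ran from 0.20 without control replicate 2 to 0.45 without control replicate 1.

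XRCC2, a paralog that forms a complex with RAD51B, RAD51C and RAD51D, read 8.47, 8.52 and 8.50 in BL-8040 tumours, against 8.46, 8.08 and 8.43 in control tumours (log2). All treated values lay above all controls, by 0.0095 log2 units at the closest, and only control replicate 2 was clearly lower. Without that tumour the XRCC2 difference was 0.05, against 0.17 with all 6.

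The other paralogs of this family lay close to their control level. RAD51B, RAD51C and XRCC3 differed by 0.02, 0.0046 and 0.04 log2 units, and the 95% interval of RAD51C reached from -0.16 to 0.17. Among the DNA translocases of homologous recombination, RAD54B differed by 0.10 and RAD54L by 0.03. RAD54L varied little in either group and read 5.94, 5.99 and 6.01 in BL-8040 tumours, against 5.94, 5.95 and 5.96 in control tumours (log2).

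RAD50 and NBN are subunits of the complex that binds and trims broken ends. RAD50 read 9.12, 9.14 and 8.98 in BL-8040 tumours, against 9.14, 9.25 and 9.14 in control tumours (log2). The treated values all lay below the controls, but by only 0.00088 log2 units at the closest, and the difference was -0.10 (95% interval -0.27 to 0.08). NBN read 7.50, 7.50 and 7.25 in BL-8040 tumours, against 7.61, 7.54 and 7.43 in control tumours, a difference of -0.11 with overlapping groups. BL-8040 replicate 3 held the lowest value of both genes. When it was left out the differences were -0.05 for RAD50 and -0.03 for NBN.

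BLM, the helicase that dissolves recombination intermediates and is mutated in Bloom syndrome, read 7.42, 7.51 and 7.59 in BL-8040 tumours, against 7.50, 7.39 and 6.96 in control tumours (log2). Its difference of 0.22 ± 0.13 (SE) rested on control replicate 3, without which it was 0.06.

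**Figure D2:**
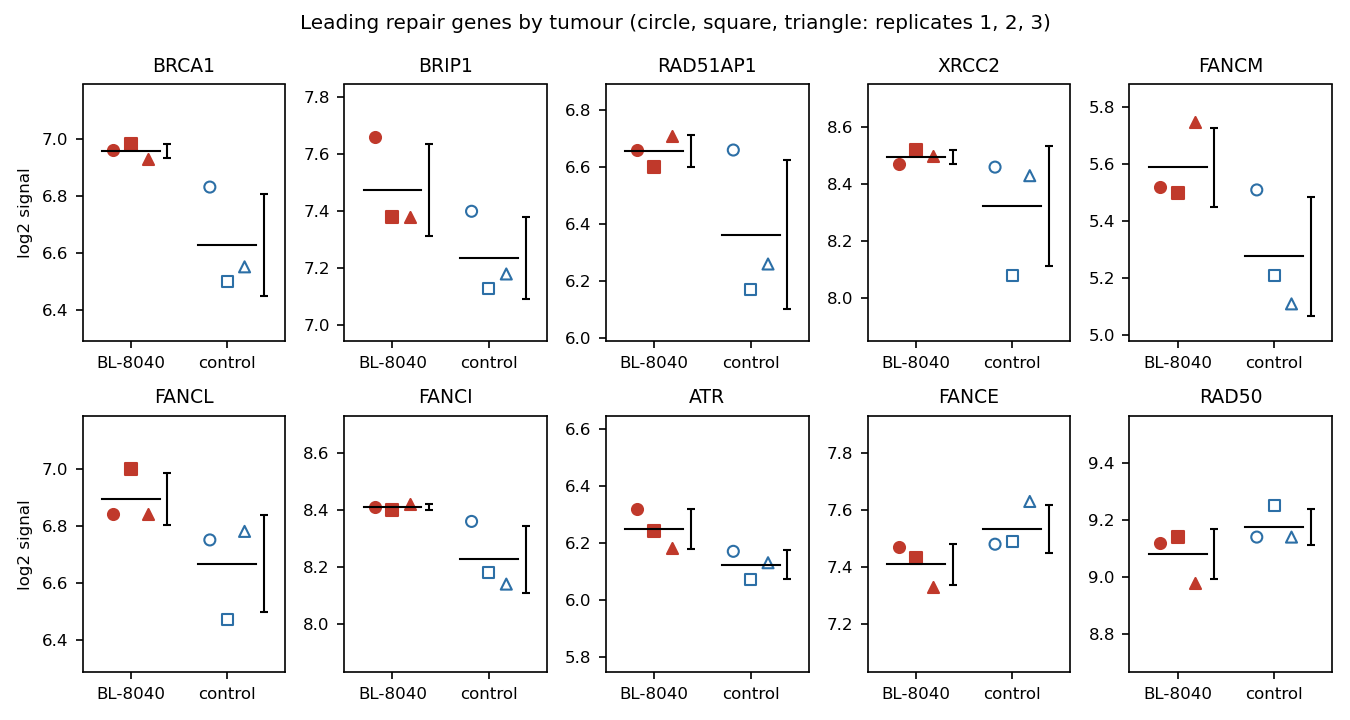
Log2 signal (y axis; each panel spans the same number of log2 units) of 10 repair genes in the 3 BL-8040 tumours (filled red, left) and the 3 control tumours (open blue, right); circle, square and triangle are replicates 1, 2 and 3, lines are means and bars are 1 SD. For BRCA1, RAD51AP1, FANCM and FANCI control replicate 1 (open circle) lies nearer to the treated tumours than to the other controls, and for FANCE and RAD50 the treated values lie lower.

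In the Fanconi pathway a core complex, anchored to DNA by FANCM, lets its ligase subunit FANCL attach ubiquitin to the FANCD2 and FANCI pair. FANCM read 5.52, 5.50 and 5.75 in BL-8040 tumours, against 5.51, 5.21 and 5.11 in control tumours (log2). BL-8040 replicate 3 was the highest, and control replicate 1 lay between the other 2 treated tumours. The FANCM difference was 0.32 ± 0.12 (SE; 95% interval 0.05 to 0.58; limma adjusted p = 0.644), and it was 0.24 without BL-8040 replicate 3 and 0.23 without control replicate 3. The FANCM signal (mean 5.43) lay below the median of all genes, and no detection call was available.

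FANCL read 6.84, 7.00 and 6.84 in BL-8040 tumours, against 6.75, 6.47 and 6.78 in control tumours (log2). The treated tumours all lay above the controls, 0.06 log2 units apart at the closest. The difference was 0.23 ± 0.10 (SE; limma adjusted p = 0.644), and without control replicate 2, the lowest tumour, it was 0.13.

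FANCI read 8.41, 8.40 and 8.42 in BL-8040 tumours, against 8.36, 8.18 and 8.14 in control tumours (log2). The treated tumours were within 0.01 (SD) of each other, and the groups did not overlap. The FANCI difference was 0.18 ± 0.08 (SE; 95% interval 0.01 to 0.36; limma adjusted p = 0.644), a 1.14-fold level that ran from 0.14 to 0.25 with 1 tumour left out.

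The remaining core complex genes were FANCC, FANCE, FANCF and FANCG. FANCE, which bridges the core complex to FANCD2, read 7.47, 7.43 and 7.33 in BL-8040 tumours, against 7.48, 7.49 and 7.63 in control tumours (log2). The treated tumours all lay below the controls, by 0.01 log2 units at the closest, and the difference was -0.12 (95% interval -0.30 to 0.05). FANCC differed by 0.06, FANCG by 0.04 and FANCF by 0.03, each with overlapping groups. FANCF varied within both groups, with SDs of 0.16 in BL-8040 tumours and 0.17 in control tumours.

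All 4 checkpoint kinases had a positive difference, between 0.03 and 0.12 log2 units, as 41.5% of all genes did. The difference of ATM turned to -0.0037 without BL-8040 replicate 1 and to -0.02 without control replicate 2. That of CHEK1 turned to -0.01 without control replicate 3. ATR, the kinase that responds to single-stranded DNA at stalled forks, read 6.32, 6.24 and 6.18 in BL-8040 tumours, against 6.17, 6.07 and 6.13 in control tumours (log2). The groups did not overlap, the gap was 0.01, and the difference was 0.12 (95% interval -0.04 to 0.29; limma adjusted p = 0.681). Its target kinase CHEK1 read 8.38, 8.39 and 8.28 in BL-8040 tumours, against 8.40, 8.32 and 8.23 in control tumours. The groups of CHEK1 overlapped, and its difference was 0.03 (95% interval -0.14 to 0.20). ATM, the kinase that responds to double-strand breaks, differed by 0.04 and its target CHEK2 by 0.10. The CHEK2 signal was below the median of all genes, and CHEK2 has pseudogene copies that its probes may also read.

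Of the mismatch repair genes, MSH6, which recognises mispaired bases, read 7.56, 7.65 and 7.48 in BL-8040 tumours, against 7.58, 7.64 and 7.61 in control tumours (log2). The groups overlapped and the difference was -0.05 (95% interval -0.21 to 0.12). PMS2, which cuts the mispaired strand, read 7.35, 7.36 and 7.35 in BL-8040 tumours, against 7.37, 7.22 and 7.14 in control tumours, a difference of 0.11. Control replicate 1 was again level with the treated tumours. The symbols of 9 probe sets include PMS2, a gene with many pseudogene copies, so this value is uncertain.

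End joining starts with the Ku ring of XRCC5 and XRCC6, which recruits the kinase PRKDC, and LIG4 seals the break. XRCC5 read 9.92, 9.89 and 9.92 in BL-8040 tumours, against 9.98, 9.98 and 9.77 in control tumours (log2), a difference of -0.0013 with a 95% interval from -0.18 to 0.18. XRCC6 read 10.04, 9.95 and 9.72 in BL-8040 tumours, against 10.00, 10.03 and 10.05 in control tumours. The XRCC6 difference of -0.13 was the most negative among the repair genes and rested on BL-8040 replicate 3, without which it was -0.03. PRKDC differed by 0.04 (95% interval -0.14 to 0.22) and LIG4 by 0.01 (95% interval -0.15 to 0.17).

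PARP1, the sensor of single-strand breaks, read 9.29, 9.20 and 9.29 in BL-8040 tumours, against 9.27, 9.17 and 9.22 in control tumours (log2). The groups overlapped, and the difference was 0.04 (95% interval -0.12 to 0.20), or between 0.922 and 1.15 times the control level. For 14 of the 32 repair genes the whole 95% interval lay within 0.26 log2 units of 0, which is 1.20-fold in either direction, so larger shifts of those genes lie outside their intervals.

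Across the 32 genes, 24 (75%) had a higher and 8 a lower mean in BL-8040 tumours, where 41.5% and 58.5% of all genes did. The median difference was 0.04 log2 units, against -0.02 over all genes. Without control replicate 1 this median was 0.09, without BL-8040 replicate 3 it was 0.06, and without BL-8040 replicate 1 it was 0.03. All 3 treated values lay above all 3 controls in 5 repair genes (15.6%, where 4.93% of all genes did) and below them in 2 (6.25%, where 9.05% of all genes did). The 5 were BRCA1, XRCC2, ATR, FANCL and FANCI, and the 2 were RAD50 and FANCE. Of the 32 genes, 28 had a mean signal at or above the median of all genes, and the other 4 were XRCC3, RAD54L, CHEK2 and FANCM.

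The control tumours were not alike in these genes. Control replicate 1 was the highest of the 3 controls in 23 of 32 repair genes (71.9%), where this held for 30.7% of all genes. It lay above the gene's mean over the 6 tumours in 27 of the 32, as many as BL-8040 replicate 1. Control replicates 2 and 3 did so in 9 and 7. Over all genes this share was 52.3% for control replicate 1 and 51.6% for BL-8040 replicate 1. It was 58.7% and 53.9% for control replicates 2 and 3. Control replicate 2 was the lowest of all 6 tumours in 12 repair genes and control replicate 3 in 11, while BL-8040 replicate 3 was the lowest in 8 (25%) and BL-8040 replicates 1 and 2 in 0. Over all genes BL-8040 replicate 3 was the lowest tumour in 30.5%, control replicate 2 in 12.3% and control replicate 3 in 17.5%. BL-8040 replicates 1 and 2 were the lowest in 12.8% and 13.9% of all genes. Without control replicate 1 the treated values lay above all controls in 15 of 32 repair genes (46.9%), where 11.1% of all genes did, and without BL-8040 replicate 3 in 8 (25%), where 10.1% of all genes did. Without control replicate 3 the treated values lay below all controls in 5 of the 32, a share near the 15.1% of all genes.

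**Figure D3:**
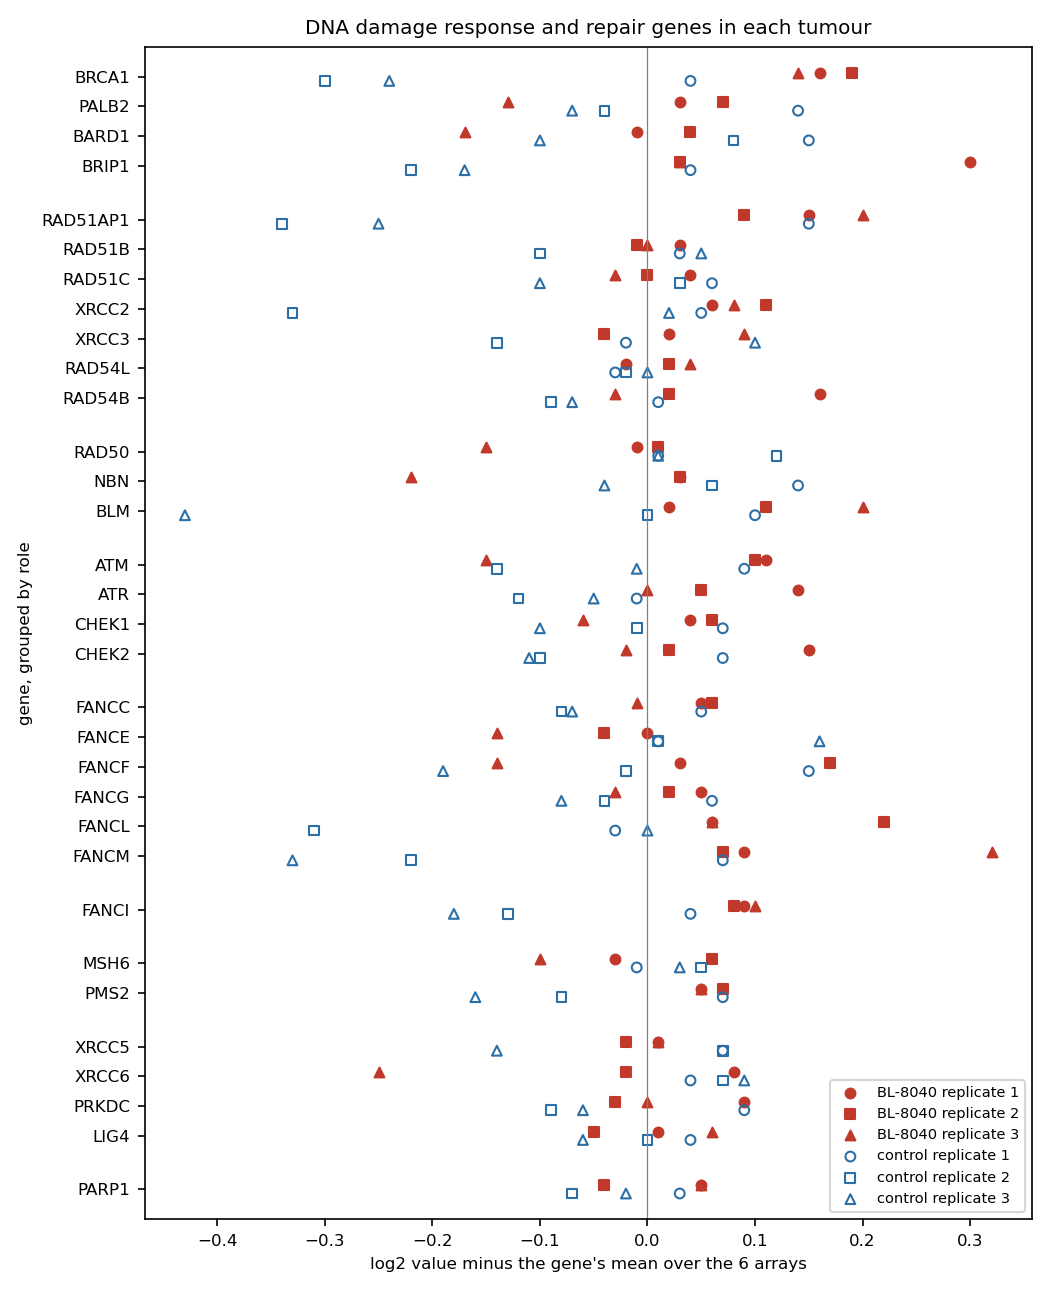
Log2 value of each repair gene in each tumour minus that gene's mean over the 6 tumours (x axis), with genes grouped by role down the page; filled red symbols are BL-8040 tumours and open blue symbols control tumours, and circle, square and triangle are replicates 1, 2 and 3. Control replicate 1 (open circle) lies right of 0 in 27 of the 32 genes, control replicates 2 and 3 (open square and triangle) in 9 and 7. Over all genes the shares for control replicates 1, 2 and 3 are 52.3%, 58.7% and 53.9%.

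The treated tumours were more alike than the controls in these genes. The SD over the 3 tumours was smaller in the BL-8040 group than in the control group in 21 of 32 repair genes (65.6%), where it was in 48.8% of all genes. The median SD of the repair genes was 0.0669 log2 units in BL-8040 tumours and 0.102 in control tumours, and that of all genes was 0.0966 in BL-8040 tumours and 0.0949 in control tumours.

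Proliferation transcripts varied over the same tumours. The median deviation of the 32 repair genes from their means was 0.05, 0.03 and 0.00 in BL-8040 replicates 1, 2 and 3, against 0.05, -0.07 and -0.07 in control replicates 1, 2 and 3 (log2). That of 21 proliferation and S phase genes, which include MKI67, TOP2A and the MCM helicase subunits, was 0.06, 0.00 and -0.01 in BL-8040 tumours and 0.07, -0.02 and -0.11 in control tumours. In both lists control replicate 1 was at or above the treated tumours and control replicate 3 was at the bottom, level with control replicate 2 in the repair genes. Of the proliferation genes 14 were higher and 7 lower, where 41.5% of all genes were higher. At an unadjusted limma p under 0.05, 2 were higher (RRM2 and CCNE2), where 2.64% of all genes were. The treated values lay above all controls in 4 of the 21 proliferation genes, where 4.93% of all genes did. They lay below all controls in 0, where 9.05% of all genes did. Non-overlapping higher groups were thus not particular to the repair genes. The part of proliferation in the differences of the repair genes was not tested.

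Transcripts induced by low oxygen also differed between the tumours. Of those measured, 13 of 13 were lower in BL-8040 tumours, where 58.5% of all genes were. At an unadjusted limma p under 0.05, 4 of them were lower, where 5.08% of all genes were. The median difference of these transcripts was -0.35, against -0.02 over all genes. The median deviation of these transcripts was -0.14, 0.17 and -0.50 in BL-8040 tumours, against 0.04, 0.38 and 0.15 in control tumours. The order of the tumours was not that of the repair genes, since control replicate 1 was the lowest control in the oxygen-dependent transcripts and the highest in most repair genes. The part of oxygen supply in the result was not tested.

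**Figure D4:**
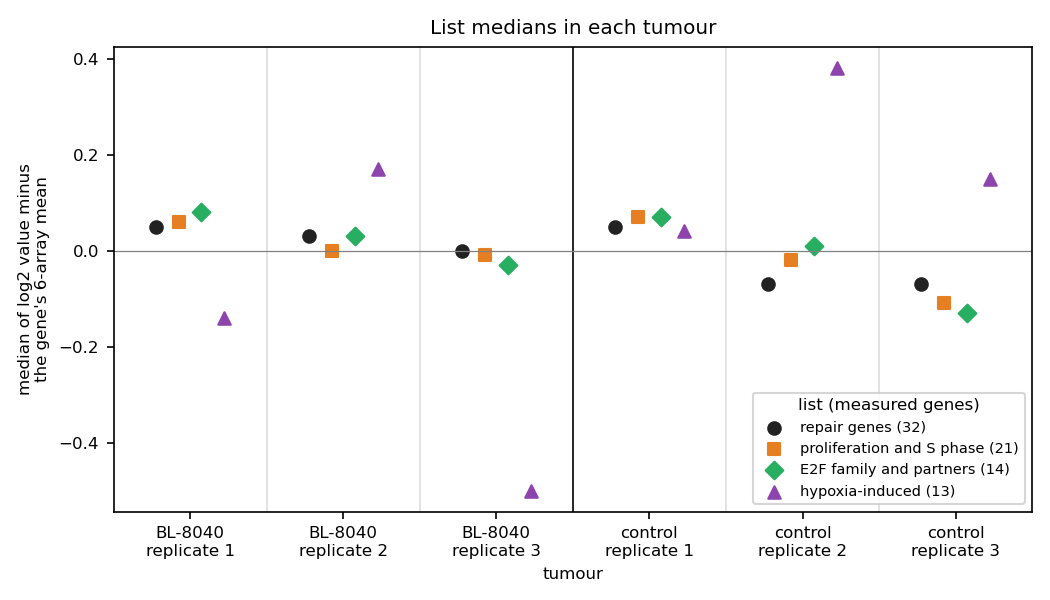
Median over the genes of a list of the log2 value minus the gene's mean over the 6 tumours (y axis), for each tumour (x axis; BL-8040 left, control right), in the repair genes and 3 other lists. The repair genes (black) lie at 0.05, 0.03 and 0.00 in BL-8040 tumours and at 0.05, -0.07 and -0.07 in control tumours, and the hypoxia-induced transcripts (purple) reach -0.50 in BL-8040 replicate 3.

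Markers of tumour cells and of other cell types varied as well. The host is a mouse and the array was built for human transcripts. How far the markers of other cell types read host cells is therefore not known. Of 11 measured neuroblastoma identity genes 10 were lower in BL-8040 tumours, where 58.5% of all genes were. The mean log2 level of the 11 was 8.29 to 8.90 in BL-8040 tumours and 8.74 to 9.07 in control tumours. The mean log2 level of 10 fibroblast and pericyte markers was 8.15 to 8.56 in BL-8040 tumours and 8.20 to 8.32 in control tumours. For 10 endothelial markers it was 5.02 to 5.23 in BL-8040 tumours and 5.09 to 5.15 in control tumours, and for 10 myeloid markers 4.74 to 4.89 in BL-8040 tumours and 4.75 to 4.88 in control tumours. BL-8040 replicate 3 had the highest mean fibroblast, endothelial and myeloid level and the lowest mean identity level. In the median deviation from each gene's mean, control replicate 3 was the highest for endothelial markers (0.08, against 0.07 in BL-8040 replicate 3). The same held for myeloid markers (0.05 against 0.01). The array holds no zero, so absence of a marker could not be read, and the part of cell composition in the differences of the repair genes was not tested.

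The wider repair machinery was read from 7 further lists. None of their genes passed over all genes (limma adjusted p of 0.644 or more). Among 25 other genes of recombination and crosslink repair, 16 were higher and 9 lower, where 41.5% of all genes were higher. In 0 of the 25 the treated values lay above all controls, where 4.93% of all genes did. The median difference was 0.04, and 1 gene was higher at an unadjusted limma p under 0.05 (2.64% of all genes). That gene was HELLS, a chromatin remodeller, at 7.60, 7.55 and 7.64 in BL-8040 tumours, against 7.56, 7.06 and 7.30 in control tumours (log2). It showed the same high control replicate 1 as BRCA1. GEN1, a nuclease for recombination intermediates, was 1.15-fold higher, and so was DNA2, which resects broken ends.

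Of 17 damage signalling and checkpoint adaptor genes, 13 were higher and 4 lower, where 41.5% of all genes were higher. Their median difference was 0.03. CLSPN, the adaptor through which ATR activates CHEK1, read 5.94, 6.0 and 6.13 in BL-8040 tumours, against 5.89, 5.64 and 5.59 in control tumours (log2). The groups did not overlap, and its difference of 0.32 ± 0.10 (SE) was as large as that of FANCM. TIPIN, a fork protection protein, was 1.14-fold higher and the kinase gene WEE1, which restrains entry into mitosis, 1.16-fold.

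Translesion synthesis genes, whose polymerases copy past damaged bases, were mostly higher, 10 of the 14 measured beside 41.5% of all genes. Their median difference was 0.09. In 3 of the 14 the treated values lay above all controls (4.93% of all genes), and in 0 below them (9.05% of all genes). RAD18, the ligase that starts this pathway by modifying the replication clamp, read 8.19 in each of the 3 BL-8040 tumours, against 8.12, 7.95 and 7.94 in control tumours (log2), a difference of 0.19 ± 0.08 (SE). The polymerases POLQ and REV1 were 1.15-fold and 1.12-fold higher. Of 9 other mismatch repair and clamp genes 7 were higher, beside the same 41.5% of all genes. RFC3 and PCNA were 1.13-fold higher each, and RFC1 differed by -0.05.

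Of the base excision and single-strand break repair genes 13 of 18 were lower, with a median difference of -0.06, where 58.5% of all genes were lower with a median of -0.02. NEIL1, a glycosylase for oxidised bases, read 5.38, 5.55 and 5.40 in BL-8040 tumours, against 5.59, 5.68 and 5.78 in control tumours (log2), 0.846 times the control level. LIG1, the ligase of replication and long-patch repair, stood at 0.895 times. FEN1, the flap nuclease of the same steps, was 1.16-fold higher.

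Of 6 further end joining genes 5 were lower, with a median difference of -0.09, beside the same 58.5% of all genes. POLL, a polymerase that fills gaps at joined ends, read 6.31, 6.42 and 6.36 in BL-8040 tumours, against 6.65, 6.65 and 6.54 in control tumours (log2). The groups did not overlap, and the difference of -0.25 ± 0.07 (SE) gave an unadjusted limma p of 0.00696 and an adjusted p of 0.644. POLM, its relative, stood at 0.881 times the control level, and DCLRE1C, the nuclease Artemis, at 1.07 times. Nucleotide excision repair, which removes bulky lesions, was split into 9 higher and 7 lower genes, where 41.5% of all genes were higher. Its median difference was 0.01. ERCC8, which acts at stalled transcription, was 1.11-fold and GTF2H5 1.10-fold higher, and GTF2H4, another subunit of the same transcription factor, stood at 0.938 times. Differences between these lists were not tested.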

How the data were processed

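The authors deposited 1 table of log2 values, 1 column per array and 1 array per tumour, with 33297 probe sets. The scale was read from the values (1.08 to 13.2). The submitters' processing notes name Partek 6.6; how background, normalization and the summary of probes were handled is not given in these sources. The array was the Human Gene 1.0 ST, per the series' design text, and sample titles gave groups and replicate numbers.

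Per the platform annotation 19460 probe sets had 1 symbol, 1754 several, and 12083 are unnamed here. This gave 18417 genes. No further normalization or filter on dim genes was applied. The 2 groups were compared per gene in limma 3.58.1 (lmFit, eBayes; R 4.3.3) with a two-sided test and no replicate block, and Benjamini-Hochberg adjustment ran over all 18417 genes. SE is the moderated one. Tumours came from 3 mice per group, per the design text. Precision is limited by the number of arrays: the half-width of the 95% interval was 0.15 to 0.298 log2 units over the repair genes. The test was checked on simulated arrays.

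The repair genes and the other lists were chosen with earlier results of these data known, so counts and medians over a list are descriptions. All measured repair genes could be named, with every array's value for those with non-overlapping groups, an unadjusted p under 0.05 or 1 of the 3 largest differences per direction; of each other list up to 3 genes with the smallest p. Values of further repair genes were added after they were seen. Same-numbered tumours did not deviate together (correlations of -0.04, 0.02 and 0.08 across genes), so the numbers were not taken as pairs. Alternatives were filters on dim genes, the mean of probe sets, median centring or quantile normalization, array weights, robust moderation with a variance trend, a replicate block, other thresholds and each array left out. No sequences are shown, because the reference tables used here are those of the mouse host.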

Additional observations from a re-analysis of the deposited data

How the results depend on the processing

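No repair gene and no other gene passed at an adjusted limma p under 0.05 under any alternative, or under 0.1 in the fit reported; the smallest adjusted p of a repair gene was 0.461, with array weights. Of 441 recomputed differences of repair genes 422 kept their sign. The sign turned for PALB2 (0.02) and LIG4 (-0.0043) with array weights and for RAD51C (-0.0022) with quantile normalization. With 1 tumour left out, 9 genes turned at least once, with ranges of -0.02 to 0.12 for ATM, -0.01 to 0.07 for CHEK1, -0.05 to 0.12 for FANCF, -0.02 to 0.04 for LIG4, -0.06 to 0.05 for PALB2, -0.03 to 0.05 for RAD51B, -0.04 to 0.03 for RAD51C, -0.02 to 0.10 for XRCC3 and -0.07 to 0.04 for XRCC5. The count of repair genes higher at an unadjusted limma p under 0.05 ran from 1 to 7 with 1 tumour left out, against 5 with all, and 1 gene, BRCA1, was higher at p under 0.01 (0.483% of all genes). The count with treated values above all controls ran from 5 to 15 (7.97% to 11.1% of all genes) and below them from 2 to 5 (13% to 18.3% of all genes, so near or under that background); the count below them was 1 with quantile normalization and 0 with median centring, against 2, and these groups lay at most 0.01 log2 units apart. Fewer controls make separation easier by construction; otherwise the cause was not tested. With the replicate block 4 repair genes were higher at that p, 3 of them among the 5 reported. With 2 tumours left in a group, limma pools the spread of both groups.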

Other observations

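Transcripts that DNA damage is known to induce showed no common direction. Of 14 measured, 5 were higher and 9 lower in BL-8040 tumours, where 58.5% of all genes were lower. The median difference was 0.00 log2 units. At an unadjusted limma p under 0.05 there were 0, where 7.72% of all genes reached that p in either direction. SESN1 and SESN2, sestrins of the stress response, read 1.14-fold and 1.13-fold higher, and GADD45G, a growth arrest gene, stood at 0.895 times the control level. Of 14 genes of the E2F family and its partners 11 were higher, where 41.5% of all genes were. Their median difference was 0.06. RBL1, the pocket protein p107, read 7.23, 7.15 and 7.16 in BL-8040 tumours, against 7.19, 6.85 and 6.95 in control tumours (log2). Its high control replicate 1 is that seen in BRCA1 and RAD51AP1. E2F3, an activator of S phase genes, was 1.13-fold and E2F7, a repressor of the same family, 1.08-fold higher, with a limma adjusted p of at least 0.658 for all 14.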
